A study of Parasteatoda tepidariorum with 12 samples.

Results

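The proteins of the mitochondrial ribosome were followed in the early development of the spider *Parasteatoda tepidariorum*, with whole embryos as the material. Gene models were taken as members when their description in the deposited count table named a 39S or 28S ribosomal protein, or a ribosomal protein that is mitochondrial. This rule used names alone and found 75 of 27990 gene models. RNA came from pooled embryos of 3 stages around germ disc formation. They were sampled at stage 2 (11 h after the eggs were laid), stage 3 (20 h) and early stage 5 (31 h). At each stage, *fuchi* pRNAi embryos were compared with untreated embryos, with 2 libraries per group and 12 libraries in all. The pRNAi (parental RNAi) targeted *fuchi nashi* (*fuchi*, g26874), a gene for a GATA-like transcription factor, by injection of the mother so that her eggs carry the knockdown. The replicates were 2 females. Eggs of the *fuchi* pRNAi groups were laid at day 19 by the first female and at day 18 by the second, counted from the first injection. The untreated eggs of both carry the label day 0, and the paper's methods place them 2 days before the first injection. The untreated eggs were therefore an earlier clutch of the same mother and not a clutch laid after injection of a control RNA, so that the pRNAi and the later clutch cannot be told apart. All p-values measure the spread between the libraries of these 2 females only.

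The mitochondrial ribosome translates the proteins that are still encoded in the mitochondrial DNA, which in animals are core subunits of the respiratory chain and of the ATP synthase. Its RNAs are made inside the mitochondrion, while its proteins are encoded in the nucleus, made in the cytoplasm and imported. The 39S large subunit holds the peptidyl transferase centre and the exit tunnel, and the 28S small subunit holds the decoding centre. Some of its proteins have counterparts in bacterial ribosomes, and others were added in the mitochondrial line. Eggs receive both mitochondria and maternal transcripts from the mother, and transcripts of the embryo's own genome are added later.

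The 75 members carried 67 protein numbers. By name 49 were placed in the large subunit, with S30 and S18a moved there by present placement, and 26 in the small subunit. S36 was kept in the small subunit by its name, although its mammalian counterpart was later assigned elsewhere. Of the 75 members, 41 had a bacterial counterpart and 34 had none. The small-subunit protein S12 (g14409) entered through its mitochondrial label, since its description calls it a 40S protein. A gene model described as a 50S ribosomal protein L27 (g2841) fell outside the rule. At each stage 70 members reached a CPM of 1 (counts scaled to a common library total) in at least 1 library and were tested.

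The other 5 members were at or near 0 in every library, and each was a gene model of a number carried by more than 1 model. Both models of L44, an RNase III-like protein of the large subunit, were among them: g9477 had 0 or 1 count and g12819 had 0 to 2 counts. L38 had 1 count in a single library in g15173, while g15224 was tested. L49 had 0 to 6 counts in g22720 and L54 had 0 to 7 counts in g24315, beside the tested models g13880 and g21410. A library with 0 counts allowed up to 3 counts, or 0.339 to 0.530 CPM, from counting error alone. No level of L44 could therefore be described at this depth.

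In 4 further numbers both gene models were tested. These were L11 (g3403 and g24341), L20 (g6635 and g17778), L45 (g7063 and g6105) and S31 (g10862 and g21191). The S31 models point to the same NCBI gene, and the L20 models share 1 NCBI gene, so reads of these may be split between models. The L11 model g24341 covers a scaffold fragment (scaffold 23805, 1 to 914). The L15 model g962 overlaps the gene model of AMP deaminase 2 (g963) on the opposite strand. The strand setting of the counting is not given in the sources used here, so the counts of L15 are uncertain.

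Per transcript length the members spanned a wide range (the plot of RPKM by member). The median of the mean RPKM over 12 libraries was 35.7 for the 70 tested members, 35.7 for the 44 of the large subunit and 34.8 for the 26 of the small subunit. The highest means were those of L52 (g16667, 109 RPKM), L12 (g9221, 104 RPKM), L39 (g25014, 102 RPKM) and L14 (g2844, 102 RPKM). L12 forms the flexible stalk to which translation factors bind. The ranges over libraries of these 4 members overlapped, from 34.5 to 235 RPKM in L52 and from 59.1 to 143 RPKM in L12, so their order is not resolved.

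The lowest tested members were S15 (g20639, 1.85 RPKM), L49 (g13880, 3.50 RPKM), the L11 fragment (g24341, 6.12 RPKM) and L48 (g18845, 9.80 RPKM). S15 lies at the interface of the subunits in bacteria. Its libraries ranged from 1.16 to 3.36 RPKM, below the 4.53 to 16.03 RPKM of L48 in every library.

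**Figure D1:**
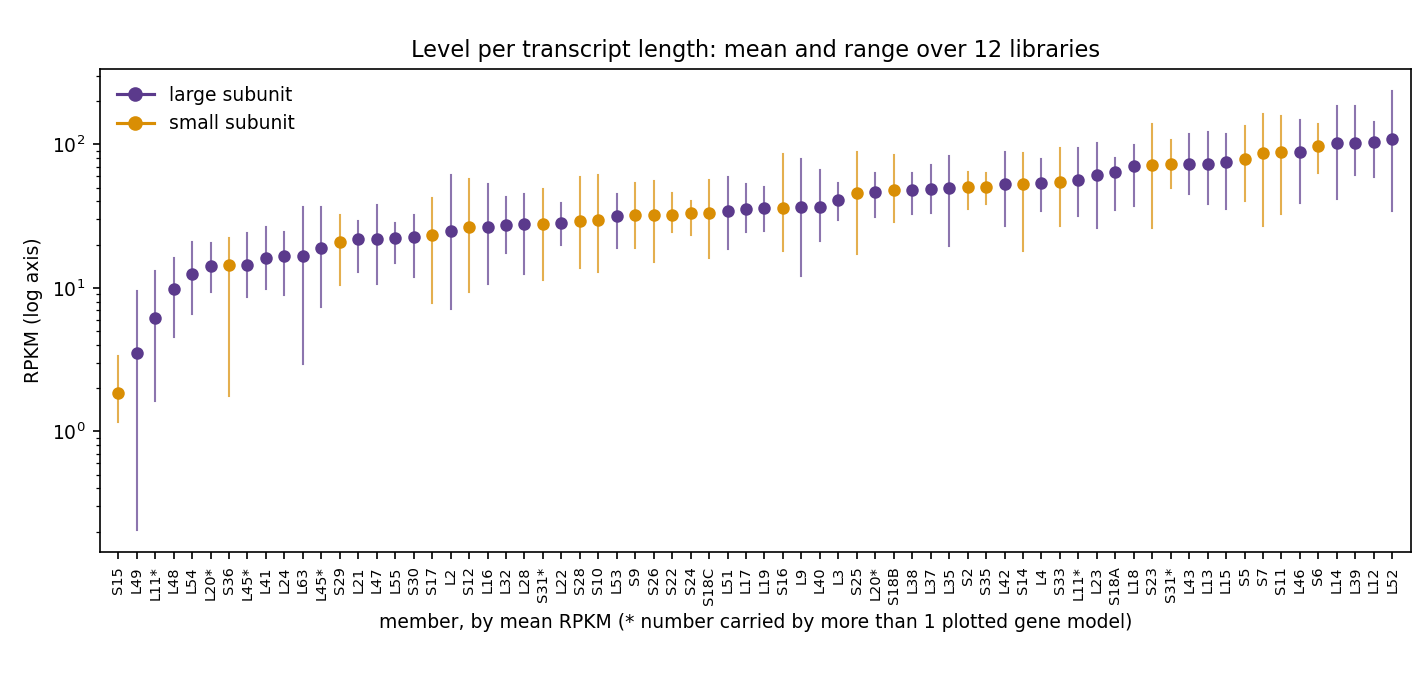
Mean RPKM (points) and range over the 12 libraries (lines) of the 70 tested members, on a log axis and sorted by the mean, with large-subunit members (S30 and S18a included) in purple and small-subunit members in orange. Means run from 1.85 RPKM (S15) to 109 RPKM (L52), and the medians are 35.7 RPKM for the large and 34.8 RPKM for the small subunit.

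Totals ranged from 5662766 to 8857990 counts per library, with 14639 to 16929 gene models detected. The targeted transcript checked the labels. At stage 2 the *fuchi* pRNAi libraries had 13.3 and 5.86 CPM of *fuchi*, against 52.8 and 38.9 CPM in untreated embryos, and it was lower in *fuchi* pRNAi libraries at the later stages too (52.0 to 123 CPM, against 227 to 308 CPM). Here and below CPM are scaled by TMM factors over the 12 libraries, which ranged from 0.789 to 1.21, and the first female is given before the second. All 75 members together took 0.242% and 0.242% of counts in *fuchi* pRNAi embryos at stage 2, against 0.252% and 0.265% in untreated embryos. At stage 3 the shares were 0.347% and 0.301%, against 0.378% and 0.344%, and at early stage 5 they were 0.370% and 0.360%, against 0.427% and 0.393%. The share was lower after pRNAi in 6 of 6 pairs of libraries from the same female. In bulk samples, fewer cells of a type and less RNA per cell cannot be told apart.

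The pRNAi comparison asks which transcripts depend on *fuchi* at each stage. No member passed the threshold, a Benjamini-Hochberg adjusted p under 0.01 in the edgeR quasi-likelihood F test over all gene models. The count of members called was 0 of 70 at each of the 3 stages, where, in order of time, 0%, 0.27% and 3.12% of all gene models were called. At stage 2 the test did not call the targeted *fuchi* itself, so the 0 there does not set the members apart from other genes. Also 0 members were called by edgeR's likelihood ratio test (background 0.0331%, 1.06% and 6.74%) and by DESeq2 (background 0.125%, 1.01% and 4.73%). The count was 0 too in limma on log2(RPKM + 1) (background 0%, 0.0751% and 2.78%). With a block for the female it was again 0 (background 0.77%, 2.6% and 7.98%). At an unadjusted p under 0.05 the edgeR test gave 2, 2 and 4 members, or 2.86%, 2.86% and 5.71% of the 70, beside 3.42%, 9.3% and 14% of all gene models. The SE of a member's log2 fold change had a median of 0.31, 0.34 and 0.26.

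The uncalled differences leaned to lower levels after pRNAi. The median log2 fold change (*fuchi* pRNAi over untreated) of the 70 members took the values -0.19, -0.29 and -0.22 in order of time, beside 0.01, 0.01 and -0.01 for all gene models tested. These medians stayed below 0 but moved with single libraries. At stage 2 the median was -0.10 without the first female's and -0.29 without the second female's untreated library, at stage 3 it was -0.45 without the first female's *fuchi* pRNAi library, and at early stage 5 it was -0.12 and -0.37 without the first and the second female's untreated library. At early stage 5 the median within females was -0.25 in the first and -0.04 in the second, where 39 of 70 members (55.7%, beside 44.1% of all gene models) were lower after pRNAi. In limma on log2(RPKM + 1) the stage 3 median was -0.17, beside 0.09 for all gene models. At stage 3 the fold change was below 0 for 62 of 70 members, at stage 2 for 47 and at early stage 5 for 58. In the same order, it was below 0 for 6536 of 13324, 5910 of 12079 and 6322 of 12358 gene models. The log2 fold change was below 0 at all 3 stages for 39 of 70 members (55.7%, beside 18.4% of the 10511 gene models tested at all stages). None was above 0 at all 3 stages (background 20.5%). The 3 stages share the same 2 females and are not independent of each other.

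The groups did not overlap, with both *fuchi* pRNAi libraries below both untreated libraries, for 19 members at stage 2 (background 14.8%), 32 at stage 3 (background 20.3%) and 19 at early stage 5 (background 19.2%). The opposite held for 5 members at stage 2 (background 17.7%), 1 at stage 3 (background 18.9%) and 3 at early stage 5 (background 23.8%). Within females, 16 of 70 members were lower after pRNAi in all 6 pairs (22.9%, beside 5.12% of all gene models), and 0 were higher in all 6 (background 6.78%). The 16 members were L15, L17, L20 (g6635), L24, L28, L35, L41, L42, L51, S5, S9, S22, S24, S26, S28 and S35. L17 and L24 line the rim of the exit tunnel, and S5 and S24, the counterpart of bacterial S3, line the path of the mRNA.

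**Figure D2:**
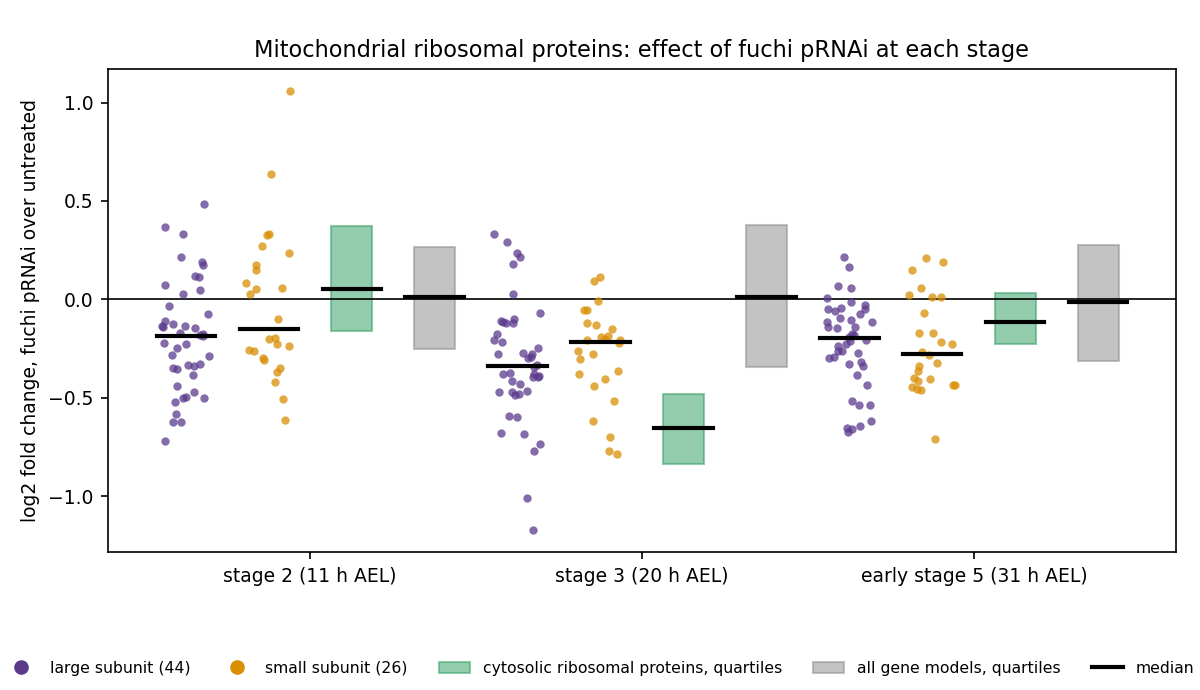
Log2 fold change of *fuchi* pRNAi over untreated (y axis) for each of the 70 tested members by stage, with 44 large-subunit members in purple and 26 small-subunit members in orange, beside the quartile boxes of cytosolic ribosomal proteins (green) and of all gene models (grey). Black bars are medians. The members' medians lie below 0 at every stage, and the cytosolic ribosomal proteins are lowest at stage 3 (-0.65).

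The medians of both subunits were below 0 at every stage, but at stage 2 the small subunit was split almost evenly, with 14 of 26 members below 0 against 33 of 44 in the large subunit. The median was -0.19 for the large and -0.15 for the small subunit at stage 2, -0.34 and -0.21 at stage 3, and -0.20 and -0.28 at early stage 5. Members of the exit tunnel rim (L17, L22, L23, L24, L45 and L47) had medians of -0.33, -0.38 and -0.23 over their 7 models. Those of the stalk (L11 and L12) had 0.03, -0.48 and -0.12 over 3 models. The central protuberance had -0.19, -0.30 and -0.05 over 7 tested models. The decoding centre and mRNA path (S5, S7, S11, S12 and S24) had -0.20, -0.41 and -0.17 over 5 models. Members with a bacterial counterpart had medians of -0.14, -0.28 and -0.26, and those without had -0.22, -0.30 and -0.14. No difference between these subgroups was tested.

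L4 (g13466; scaffold 1652, 39990 to 65214 of the Ptep_1.0 assembly), whose bacterial counterpart reaches into the exit tunnel, had the smallest p at stage 2 and at stage 3. At stage 2 its *fuchi* pRNAi libraries had 38.6 and 41.7 CPM, against 64.5 and 58.1 CPM in the untreated libraries. At stage 3 it had 56.1 and 70.0 CPM, against 106 and 106 CPM. The groups were apart at both stages, with every *fuchi* pRNAi library below every untreated library. The log2 fold change was -0.63 ± 0.24 (SE; adjusted p = 0.983) at stage 2 and -0.73 ± 0.29 (adjusted p = 0.440) at stage 3. At early stage 5 the libraries overlapped, with 69.1 and 93.4 CPM against 97.5 and 88.5 CPM.

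L41 (g11888; scaffold 1394, 15796 to 23785), a protein without a bacterial counterpart, had 9.56 and 8.62 CPM in *fuchi* pRNAi embryos of stage 3, against 14.5 and 22.6 CPM in untreated embryos. Both *fuchi* pRNAi libraries were lower at this and at the other stages, and the log2 fold change at stage 3 was -1.01 ± 0.40 (adjusted p = 0.451). S25 and S24, which lie on the same scaffold with 41953 bases between them, came next. S25 (g2042) had 33.9 and 19.7 CPM, against 41.3 and 51.4 CPM, and S24 (g2045) had 21.4 and 18.5 CPM, against 32.7 and 32.7 CPM. Neither pair of groups overlapped, and their log2 fold changes were -0.77 ± 0.37 and -0.70 ± 0.33 (adjusted p = 0.556 and 0.564). The value of S25 was -1.23 without the first female's and -0.46 without the second female's *fuchi* pRNAi library, and that of L41 was -0.66 without the second female's untreated library.

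At early stage 5 the smallest p belonged to S12 (g14409; scaffold 1868, 95516 to 106217), the protein of the decoding centre that checks codon and anticodon pairing in bacteria. It had 43.1 and 43.0 CPM in *fuchi* pRNAi embryos, against 73.8 and 60.2 CPM in untreated embryos. The groups were apart, as they were at stage 3 (15.3 and 9.23 CPM, against 22.7 and 20.3 CPM). The log2 fold change at early stage 5 was -0.71 ± 0.24 (adjusted p = 0.181).

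L23 (g14605), at the rim of the exit tunnel, had 37.4 and 33.4 CPM in *fuchi* pRNAi embryos of early stage 5, against 55.4 and 50.2 CPM in untreated embryos. L40 (g19177), a protein of the central protuberance, had 19.4 and 19.9 CPM, against 30.3 and 28.9 CPM. For both, the groups were apart by more than the difference within a group. Their log2 fold changes were -0.65 ± 0.24 (adjusted p = 0.229) and -0.66 ± 0.25 (adjusted p = 0.247), and L40 also had the fourth smallest p at stage 2 (-0.52 ± 0.28, and -0.27 without the first female's untreated library). L20 (g6635), which organizes the RNA of the large subunit early in assembly in bacteria, followed with 31.6 and 47.2 CPM, against 63.3 and 54.7 CPM (-0.65 ± 0.28, adjusted p = 0.346). Its value was -0.35 without the first female's and -0.998 without the second female's *fuchi* pRNAi library.

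S9 (g1449) and S17 (g17271) differed in opposite directions at stage 2. S9, the tail of whose bacterial counterpart reaches the transfer RNA, had 27.97 and 31.2 CPM in *fuchi* pRNAi embryos, against 54.6 and 35.1 CPM in untreated embryos (-0.61 ± 0.29, and -0.28 without the first female's untreated library). S17, an RNA-binding protein of the small subunit body, had 9.04 and 11.4 CPM, against 3.93 and 5.74 CPM (1.06 ± 0.43, adjusted p = 0.983 for both). S17 was the member with the largest positive value, and its groups overlapped at stage 3 (11.7 and 8.77 CPM, against 12.6 and 9.997 CPM) and at early stage 5 (31.8 and 22.4 CPM, against 26.2 and 25.1 CPM).

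**Figure D3:**
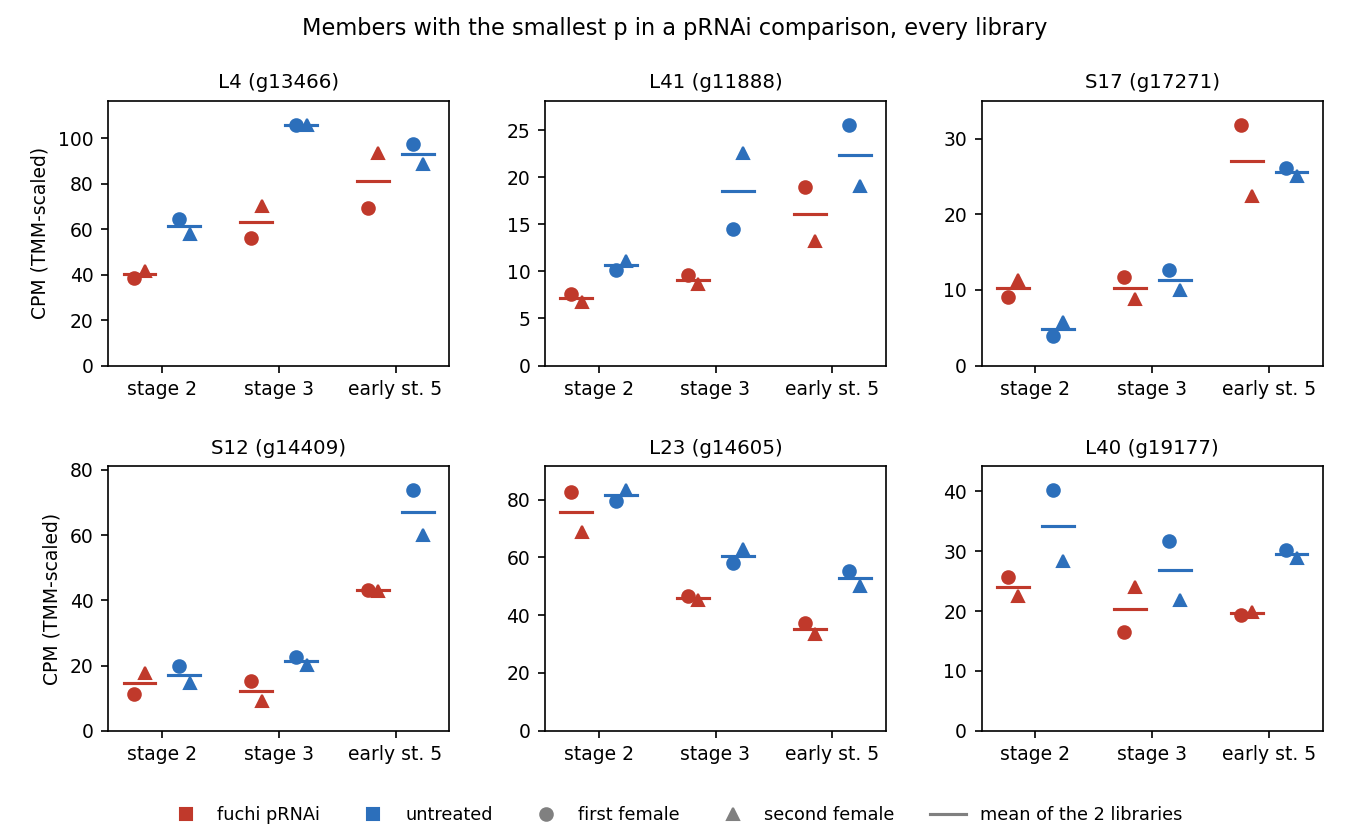
CPM (TMM-scaled, y axes from 0) in every library of 6 members with the smallest p in a pRNAi comparison, by stage, with *fuchi* pRNAi (red) left of untreated (blue), circles for the first female, triangles for the second, and bars for means of 2 libraries. L4 and L41 are lower after pRNAi at stages 2 and 3 in both females, S12, L23 and L40 at early stage 5, while S17 is higher at stage 2 and its groups overlap later.

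Other genes of mitochondrial translation and respiration served as comparison. Of 50 factors of mitochondrial translation, transcription and ribosome assembly (such as elongation factors, transfer RNA ligases and ribosomal RNA methyltransferases), 47, 48 and 47 were tested and 0 were called. Their median log2 fold changes were 0.03, -0.06 and -0.05 in order of time. Of 35 nuclear genes of the respiratory chain and the ATP synthase 0 were called, with medians of -0.11, -0.36 and -0.11. The 84 cytosolic ribosomal proteins had medians of 0.05, -0.65 and -0.11, and 0 were called at any stage. At stage 3, 78 of 81 tested cytosolic ribosomal proteins had a value below 0, beside 6536 of 13324 gene models. Of the 81, 56 (69.1%) had an unadjusted p under 0.05 in the edgeR test, beside 9.3% of all gene models and 2 of 70 mitochondrial ribosomal proteins. With the block for the female 2 of the 81 were called lower at stage 3, where 266 of 13324 gene models (2%) were called lower.

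A test of whether the pRNAi effect differed between stages called 0 of 70 members, for stage 3 against stage 2 (background 0%) and for early stage 5 against stage 3 (background 0.269%). At an unadjusted p under 0.05 it gave 2 and 0 members (background 4.21% and 7.79%). DESeq2 also called 0 (background 0.199% and 1.15%), as did limma on log2(RPKM + 1) (background 0.0759% and 1.15%). The likelihood ratio test called 0 too (background 0.152% and 1.1%). The smallest p for stage 3 against stage 2 belonged to S17 (-1.22 ± 0.49), S25 (-0.95 ± 0.43) and S14 (g16339, -0.82 ± 0.46), with adjusted p = 1.000 for each. For early stage 5 against stage 3 they were L43 (g12381, 0.57 ± 0.34, adjusted p = 0.809), L4 (0.55 ± 0.33, adjusted p = 0.813) and L21 (g7266, 0.58 ± 0.42, adjusted p = 0.875). The effects on these members were thus not shown to differ between stages.

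The comparison of successive stages asks how transcripts change as the embryo develops. From stage 2 to stage 3 more members rose than fell in both treatments, but the share that rose was near that of all gene models. In *fuchi* pRNAi embryos 9 of 70 members rose (background 12.7%) and 1 fell (background 12.6%). In untreated embryos 15 rose (background 17.2%) and 1 fell (background 15.7%). The members' median log2 fold change was 0.40 in *fuchi* pRNAi embryos and 0.59 in untreated embryos, beside 0.08 and 0.10 for all gene models. All 9 risers in *fuchi* pRNAi embryos were among the 15 in untreated embryos, which is 60% of these. The other 6 were S14, L13, L52, S25, L9 and L12, and for none of them was a difference of the pRNAi effect between the stages called. The overlap of risers between treatments was not counted over all gene models.

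From stage 3 to early stage 5, 14 members rose in *fuchi* pRNAi embryos (background 8.09%) and 8 in untreated embryos (background 7.7%), while 0 fell (backgrounds 11.2% and 10.6%). The medians were 0.81 and 0.64, beside -0.07 and -0.05 for all gene models. At this step 44 and 39 members had an unadjusted p under 0.05 (62.9% and 55.7%, beside 42.3% and 41.8% of all gene models). The treatments shared 7 risers, which is 50% of the 14 and 87.5% of the 8. Here too the overlap was not counted over all gene models, so it is not shown to be particular to the members. Both treatments also come from the same females and the same fit. Values were positive for 57 of 70 members at the earlier step and 60 at the later step in *fuchi* pRNAi embryos, and for 59 and 58 in untreated embryos. Among 14498 gene models they were positive for 7585 and 6806 in *fuchi* pRNAi embryos, and for 7633 and 6989 in untreated embryos. At the later step every early stage 5 library was above every stage 3 library for 56 members in *fuchi* pRNAi embryos (background 31.6%) and 47 in untreated embryos (background 32.7%), and below for 5 (background 35.2%) and 8 (background 34.4%). At the earlier step the same held upward for 36 and 43 members (backgrounds 36.8% and 39.4%) and downward for 6 and 5 (backgrounds 32.4% and 34.5%).

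These counts leaned on the scaling and on single libraries. With the block for the female, from stage 3 to early stage 5, 24 members rose in *fuchi* pRNAi embryos (background 10.9%), and 14 rose and 1 fell (L46) in untreated embryos (backgrounds 11.2% and 13.6%). Scaled by total counts alone, the split of rises and falls at this step was 3 and 2 in *fuchi* pRNAi embryos (3.60% and 18.0% of all gene models) and 6 and 2 in untreated embryos (5.11% and 14.5%), with medians of 0.34 and 0.35 against -0.53 and -0.32 for all gene models. S10, L2 and S12 were the 3 rises in *fuchi* pRNAi embryos and L15 and L46 the 2 falls, and in untreated embryos the falls were S31 (g10862) and L46. In limma on log2(RPKM + 1) the split from stage 2 to stage 3 was 6 and 2 in *fuchi* pRNAi embryos (10% and 15.8% of all gene models) and 11 and 3 in untreated embryos (13.2% and 21.3%). Leaving out any 1 of the 4 libraries of a comparison lowered the calls over all gene models too. In *fuchi* pRNAi embryos it gave 2 to 5 rises from stage 2 to stage 3 (6.74% to 10% of all gene models) and 1 to 8 from stage 3 to early stage 5 (2.94% to 5.52%), and in untreated embryos 3 to 5 at the later step (3.57% to 4.51%). From stage 2 to stage 3 in untreated embryos it gave 9 rises without the first female's stage 2 library (10.8% of all gene models) and 11 to 13 without another (11.2% to 12.8%).

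**Figure D4:**
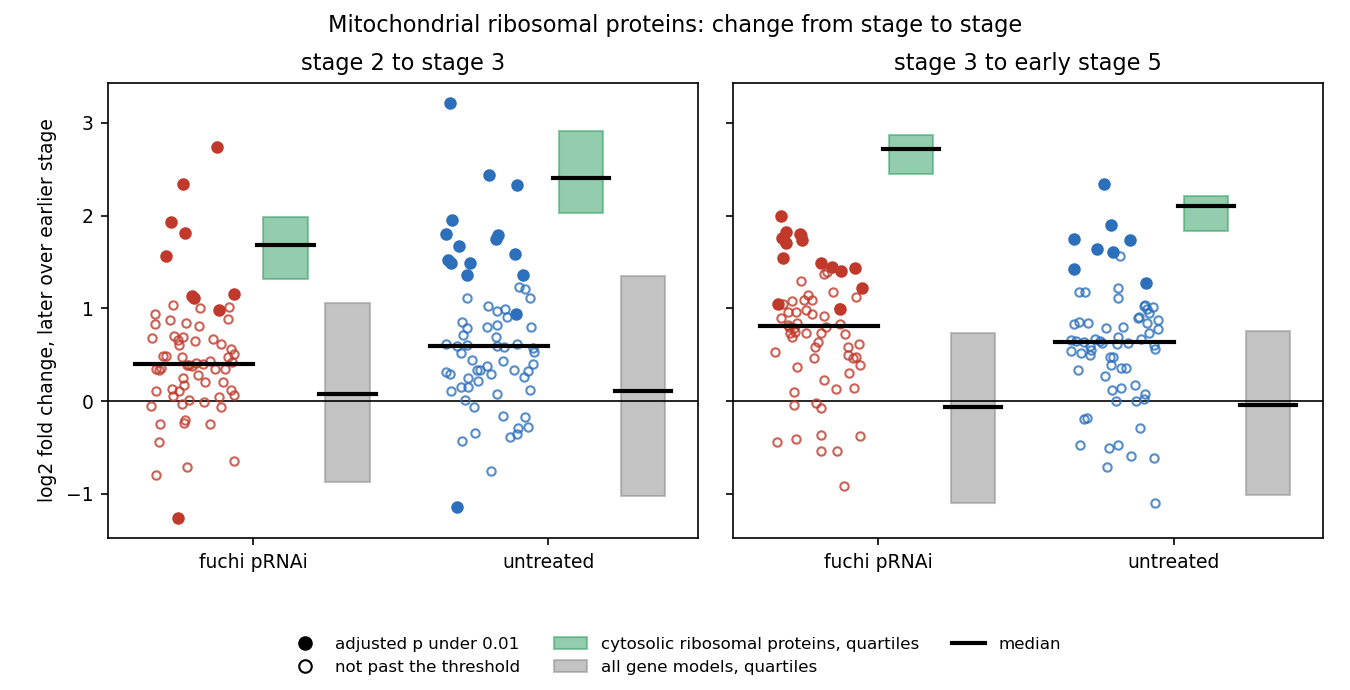
Log2 fold change of the later over the earlier stage (y axis) for each of the 70 tested members, in *fuchi* pRNAi embryos (red) and untreated embryos (blue), with filled points for adjusted p under 0.01, beside quartile boxes of cytosolic ribosomal proteins (green) and all gene models (grey). Black bars are medians. The members' medians (0.40 and 0.59, then 0.81 and 0.64) lie between those of all gene models and those of the cytosolic ribosomal proteins.

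The smallest p from stage 2 to stage 3 was that of S36 (g18773; scaffold 2972, 60530 to 74404) in both treatments. S36 was first described as a small-subunit protein, and its mammalian counterpart was later assigned to the 2-oxoglutarate dehydrogenase complex. In *fuchi* pRNAi embryos its libraries had 14.5 and 22.5 CPM at first, then 102 and 85.3 CPM, then 136 and 123 CPM at the 3 stages. In untreated embryos it had 7.46 and 16.05 CPM, then 112 and 104 CPM, then 130 and 85.4 CPM. All stage 3 libraries were above all stage 2 libraries, and stage 3 and early stage 5 overlapped in untreated embryos. The log2 fold change to stage 3 was 2.34 ± 0.36 in *fuchi* pRNAi embryos (adjusted p = 0.000257) and 3.21 ± 0.37 in untreated embryos (adjusted p = 2.36e-05).

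L63 (g10310; scaffold 1153, 177809 to 185634), a protein without a bacterial counterpart, climbed over both steps. It had 5.16 and 4.62 CPM, then 19.8 and 17.5 CPM, then 42.8 and 66.5 CPM in *fuchi* pRNAi embryos. In untreated embryos it had 3.73 and 5.61 CPM, then 27.5 and 22.9 CPM, then 68.5 and 53.6 CPM. No stage overlapped the next in either treatment. The log2 fold change to stage 3 was 1.93 ± 0.33 in *fuchi* pRNAi embryos (adjusted p = 0.000534) and 2.44 ± 0.33 in untreated embryos (adjusted p = 7.87e-05), and both calls held under every alternative run. Its second step passed as well, but that call was lost with total counts or limma in both treatments. With 1 library left out it was lost each time in untreated embryos, as in the fit of 6 libraries, and in *fuchi* pRNAi embryos it held only without the first female's early stage 5 library.

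Of the 5 members of the decoding centre and mRNA path, S5, S7 and S11 were called higher at stage 3 in each treatment. The values of S12 and S24 were not called, and were below 0 in *fuchi* pRNAi embryos and above 0 in untreated embryos. S7 (g3210), which starts assembly of the subunit head in bacteria, had log2 fold changes of 1.81 ± 0.31 and 1.95 ± 0.32 in *fuchi* pRNAi and untreated embryos (adjusted p = 0.000610 and 0.000276). S11 (g1437), on the platform, had 1.13 ± 0.26 and 1.59 ± 0.26, and S5 (g7394) had 1.12 ± 0.25 and 1.36 ± 0.25. Of the large subunit, L13 (g16405), an early assembly protein in bacteria, had 1.49 ± 0.24 in untreated embryos (adjusted p = 0.000307) and 0.88 in *fuchi* pRNAi embryos, where it did not pass (adjusted p = 0.0115, and 0.00990 with the block for the female). L49 (g13880) had 2.74 ± 0.60 in *fuchi* pRNAi embryos (adjusted p = 0.00322) and 2.33 in untreated embryos. From stage 2 to early stage 5 its mean CPM differed 23.8-fold in *fuchi* pRNAi embryos and 15.2-fold in untreated embryos, from a stage 2 level of 4 to 24 counts, or 0.499 to 2.42 CPM, over the 4 libraries. In untreated embryos S5 missed the threshold without the second female's stage 3 library, and L49 in limma and without either stage 3 library or the second female's stage 2 library. In *fuchi* pRNAi embryos S11 missed it without either stage 3 library, without the second female's stage 2 library and in the fit of 6 libraries. In the same embryos S5 missed the threshold without any 1 of its 4 libraries (adjusted p = 0.0148 to 0.0300), S7 without the second female's stage 2 library (0.0108), and L49 without that library or the first female's stage 3 library (0.0336 and 0.0277) and in limma on log2(RPKM + 1) (1.34, 0.0147).

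From stage 3 to early stage 5 the smallest p in both treatments belonged to S10 and L2. S10 (g12379; scaffold 1478, 216003 to 229744), of the small subunit head, had 18.8 and 16.97 CPM, then 19.02 and 11.95 CPM, then 49.7 and 55.8 CPM in *fuchi* pRNAi embryos. In untreated embryos it had 15.2 and 12.9 CPM, then 18.9 and 17.7 CPM, then 73.2 and 63.6 CPM. Early stage 5 stood above both earlier stages in every library, with a log2 fold change from stage 3 of 1.76 ± 0.28 in *fuchi* pRNAi embryos (adjusted p = 0.000481) and 1.90 ± 0.28 in untreated embryos (adjusted p = 0.000299).

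L2 (g15909; scaffold 2083, 44196 to 58804), which lies close to the peptidyl transferase centre, had 8.39 and 13.1 CPM, then 22.2 and 18.8 CPM, then 82.0 and 81.7 CPM in *fuchi* pRNAi embryos. In untreated embryos it had 17.8 and 12.3 CPM, then 23.1 and 11.9 CPM, then 106 and 71.9 CPM. All *fuchi* pRNAi libraries of stage 3 were above those of stage 2, while the untreated ones overlapped, and neither first step passed the threshold. The step that passed was the second, by 1.99 ± 0.36 in *fuchi* pRNAi embryos (adjusted p = 0.00109) and 2.34 ± 0.37 in untreated embryos (adjusted p = 0.000419). S12 rose there by 1.80 ± 0.33 and 1.64 ± 0.32 (adjusted p = 0.00121 and 0.00214). In untreated embryos S33 (g25467) rose by 1.74 ± 0.30 (adjusted p = 0.000765). In *fuchi* pRNAi embryos L48 (g18845), of the central protuberance, rose by 1.82 ± 0.35 and S18c (g667) by 1.44 ± 0.28 (adjusted p = 0.00167 and 0.00191). L48 and S18c were not called in untreated embryos, where their values were 1.18 and 1.03 (adjusted p = 0.0193 and 0.0135, and 0.00952 for S18c with the block for the female), and no difference of their pRNAi effect between these stages was called. Without the second female's stage 3 library, L2, S12, L48 and S18c missed the threshold in *fuchi* pRNAi embryos (adjusted p = 0.0153, 0.0167, 0.0174 and 0.0235) and S33 and S12 in untreated embryos (0.0122 and 0.0229). L48 and S18c were also lost with total counts (0.0107 and 0.0279) or without an early stage 5 library (0.0169 for L48 without the second female's, 0.0156 and 0.0141 for S18c without either), and S12 in untreated embryos without the first female's stage 3 or early stage 5 library (0.0144 and 0.0210).

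L28 (g12642; scaffold 1522, 27036 to 43309), an RNA-binding protein of the large subunit, was the only member called lower and then higher, in both treatments. It had 37.0 and 35.3 CPM, then 16.1 and 14.1 CPM, then 33.0 and 37.4 CPM in *fuchi* pRNAi embryos. Its untreated libraries had 44.2 and 36.3 CPM, then 16.96 and 19.3 CPM, then 44.4 and 53.0 CPM. The 4 libraries of stage 3 lay below the 8 of the other stages. The fall to stage 3 was -1.26 ± 0.26 in *fuchi* pRNAi embryos (adjusted p = 0.00187) and -1.15 ± 0.25 in untreated embryos (adjusted p = 0.00259), and the rise that followed was 1.22 ± 0.26 and 1.42 ± 0.26 (adjusted p = 0.00309 and 0.00115). The fall kept its size but missed the threshold in untreated embryos without the first female's stage 2 library or either stage 3 library (adjusted p = 0.0125 to 0.0224), and in *fuchi* pRNAi embryos without the first female's stage 2 or the second female's stage 3 library (adjusted p = 0.0125 and 0.0154). The rise in untreated embryos missed it without the first female's stage 3 or the second female's early stage 5 library (adjusted p = 0.0136 and 0.0124). In *fuchi* pRNAi embryos the rise missed it without any 1 of the 4 libraries, with total counts, in limma and in the fit of the 6 libraries of the treatment.

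A few members had their highest level before early stage 5. By mean CPM, 59 of 70 members were highest at early stage 5 in *fuchi* pRNAi embryos and 56 of 70 in untreated embryos. L23 was highest at stage 2 in both treatments, with 82.6 and 68.6 CPM, then 46.7 and 45.4 CPM, then 37.4 and 33.4 CPM in *fuchi* pRNAi embryos. In untreated embryos it had 79.6 and 83.2 CPM, then 58.1 and 63.04 CPM, then 55.4 and 50.2 CPM. Its stages did not overlap in either treatment, but neither step passed the threshold in edgeR. In limma on RPKM its step to stage 3 passed as lower in both treatments, and its later step in *fuchi* pRNAi embryos. L46 (g24082), of the central protuberance, had 93.5 and 185 CPM in stage 3 libraries of *fuchi* pRNAi embryos, followed by 63.7 and 84.0 CPM. The untreated libraries had 159 and 145 CPM, followed by 73.5 and 68.5 CPM. Its log2 fold change over this step was -0.92 in *fuchi* pRNAi embryos (adjusted p = 0.0305) and -1.10 in untreated embryos (adjusted p = 0.0131, and 0.00439 with the block for the female). L23 and L46 were picked here after their values were seen.

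**Figure D5:**
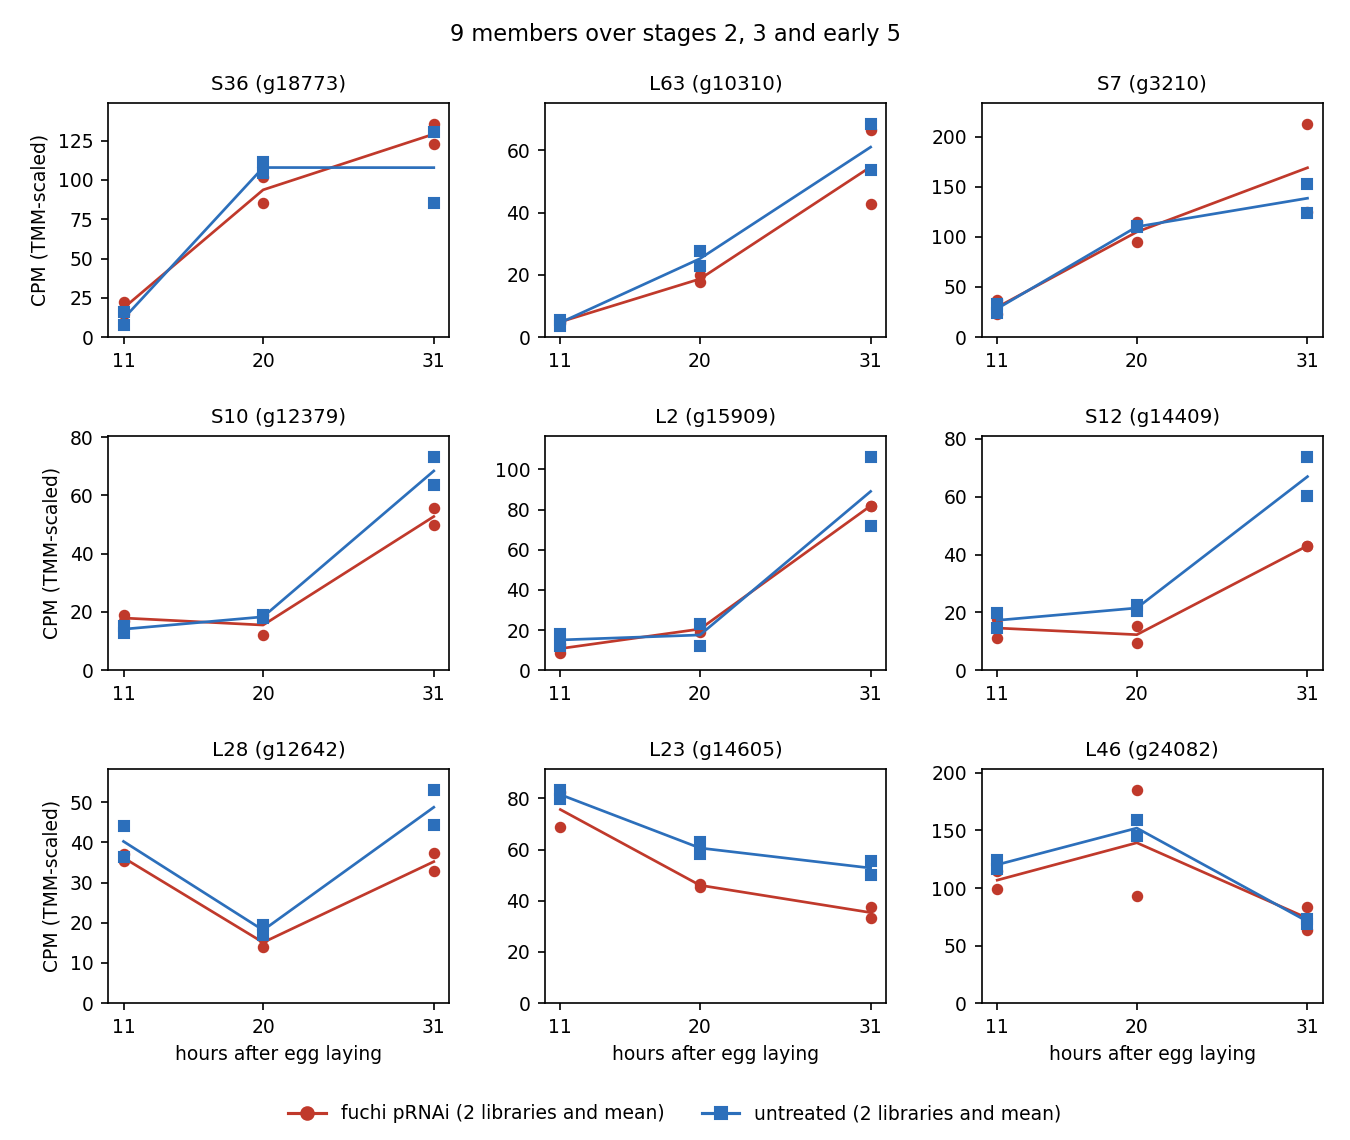
CPM (TMM-scaled, y axes from 0) against hours after egg laying for 9 members, with *fuchi* pRNAi libraries as red circles and untreated libraries as blue squares, 2 per stage, and lines through the means. S36, L63 and S7 are higher at 20 h than at 11 h, S10, L2 and S12 are highest at 31 h, L28 dips at 20 h, and L23 and L46 end below their level at 11 h.

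The mitochondrial and cytosolic ribosomal proteins differed in the size of their change. Of 83 tested cytosolic ribosomal proteins, 69 rose from stage 2 to stage 3 in *fuchi* pRNAi embryos and 77 in untreated embryos, with medians of 1.68 and 2.41. From stage 3 to early stage 5, 75 and 74 rose, with medians of 2.71 and 2.10, and 1 and 2 fell (backgrounds 11.2% and 10.6%). Of the 70 mitochondrial members, 9 and 15 rose at the first step and 14 and 8 at the second. The shares of all gene models that rose were 12.7% and 17.2%, then 8.09% and 7.7%. The 35 genes of the respiratory chain had medians of 0.67 and 0.88 and then 0.88 and 0.59, with 5 and 16 and then 12 and 3 called higher. The 48 tested mitochondrial translation and assembly factors had medians of 0.46 and 0.62 and then 0.43 and 0.32. Of these, 8 and 12 and then 6 and 5 were called higher, and 3 and 3 and then 1 and 1 lower. These comparisons between lists are given by counts and medians, without a test.

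The females differed in some members. The first female was higher in all 6 groups in 8 of 70 members (11.4%, beside 4.3% of all gene models), and the second in 1 (1.43%, beside 6.42%). S23 (g687) was the most uneven. In stage 2 libraries it had 50.7 CPM in the first and 18.6 CPM in the second female's *fuchi* pRNAi embryos, against 53.7 and 19.8 CPM in untreated embryos. At early stage 5 it had 134 and 52.2 CPM, against 105 and 54.1 CPM. The ratio of the first to the second female averaged 2.65 over the 6 groups, from 1.93 to 3.64, so the difference between females exceeded that between treatments at every stage. L49 had a mean ratio of 1.79. S2 (g13899) was the member that was higher in the second female throughout, with a mean ratio of 0.704. No member had all 6 libraries of one female above all 6 of the other (backgrounds 0.193% and 0.269%). With 2 females, no test of this difference was made.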

How the data were processed

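RNA-seq of 12 libraries of poly(A) RNA from pooled embryos was analysed. The deposited raw counts per AUGUSTUS gene model of the Ptep_1.0 assembly come from the authors, who used HTSeq (0.6.1p1, per the submitters' processing notes). The deposited RPKM values, also made by the authors, scale these counts by gene length and a library total. The aligner is not given in the sources used here.

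Counts were fitted with edgeR 4.0.16 (R 4.3.3): TMM, a filter of 1 CPM in 1 or more libraries, quasi-likelihood F test, Benjamini-Hochberg adjusted p under 0.01. Each pRNAi comparison used its 4 libraries, and stage changes and differences between stages used 1 fit of 12 libraries. Log2 fold changes per female used a prior count of 2, and an SE was taken from the log2 fold change and the F statistic. No libraries were duplicates, since within every group counts varied beyond sampling noise (chi-square of 27.96 to 44.1 on average). Same-numbered libraries come from the same female, per the labels, and their deviations from group means correlated with 0.522, 0.434 and 0.387 in order of stage. The female was a block in an alternative fit. Other alternatives were the likelihood ratio test, DESeq2 1.42.0, limma 3.58.1 on log2(RPKM + 1) and log2(RPKM + 0.1), other scaling, no filter, a fold minimum, other sets of libraries and leaving out a library.

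Members, comparison lists and the rule for named genes were chosen with earlier results of these data known. Named were the 4 members with the smallest p per pRNAi comparison, up to 5 called members per direction and stage step, the 3 smallest p per difference between stages, the 4 highest and 4 lowest RPKM, members that failed the filter, and numbers with more than 1 gene model. Simulated data were used to test the 4-library fits of edgeR (quasi-likelihood, likelihood ratio and with the block), DESeq2 and limma on CPM. The quasi-likelihood fit of 12 libraries was tested for 1 stage step. Differences between stages and the other alternative fits were not tested on them. A gene table of a different assembly was left aside.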

Additional observations from a re-analysis of the deposited data

How the results depend on the processing

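The count of members called for the pRNAi effect was 0 at each stage under every alternative run, and so was that for the difference of the effect between stages. The counts for stage changes depended on the processing. From stage 2 to stage 3, rises in *fuchi* pRNAi embryos numbered 15 with DESeq2 (17.5% of all gene models), and rises in untreated embryos numbered 25 with DESeq2 (20.9%) and 23 with the likelihood ratio test (22.2%). The falls numbered 2 in *fuchi* pRNAi (14.1% to 15.8%) and 3 in untreated embryos (20.0% to 21.3%) with limma at either pseudocount. From stage 3 to early stage 5, rises in *fuchi* pRNAi embryos numbered 29 with DESeq2 (14.4%), 23 with the likelihood ratio test (11.2%), 24 with the replicate block (10.9%), 3 with total counts (3.60%), and 5 and 6 with limma at pseudocounts of 1 and 0.1 (4.19% and 3.68%). Falls there numbered 2 with total counts, 1 without the filter, and 3 and 4 with limma, where 10.3% to 18.0% of all gene models fell. In untreated embryos rises numbered 17 with DESeq2 (13.4%) and 14 with the likelihood ratio test or the replicate block (11.5% and 11.2%), and falls 2 with total counts or limma at either pseudocount and 1 with DESeq2, the likelihood ratio test, no filter, the replicate block or the fit of 6 libraries, where 9.49% to 14.6% of all gene models fell. The members called lower were L28, L23 and L45 (g6105) at the earlier step and L46, L15, L23, L42 (g4573) and S31 (g10862) at the later step. Total counts leave out the TMM factors, and the shift this gave to all gene models stands beside the results.

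Leaving out 1 library, which leaves a group with a lone library assumed to vary like the others, gave 2 to 5 and 9 to 13 rises from stage 2 to stage 3 in *fuchi* pRNAi and untreated embryos, with 0 to 1 falls. From stage 3 to early stage 5 it gave 1 to 8 and 3 to 5 rises, with 0 to 1 falls in *fuchi* pRNAi embryos and 0 in untreated embryos. Of the named members' values under other settings, 311 stayed on the same side of the threshold and 3 lost the call, and under left-out libraries 159 stayed and 25 lost it. None changed sign. The pRNAi effects and the differences between stages in this tally were not called in the main fit, so they could not lose a call. Every lost call was therefore that of a stage change, and the tally understates the share of calls that were lost. In the comparisons for which these members were named, the replicate block changed no call. In other comparisons it called some that the main fit did not, such as S25 from stage 3 to early stage 5 in *fuchi* pRNAi embryos. For left-out libraries, the shares of all gene models that rose stand beside the results. In the main fit, 12.6% and 15.7% of all gene models fell from stage 2 to stage 3 in *fuchi* pRNAi and untreated embryos. From stage 3 to early stage 5, 11.2% and 10.6% fell. Every fit with 1 library left out gave a smaller share of falls.

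With 2 libraries per group, a member's log2 fold change after pRNAi had an SE of 0.22 to 0.88, and the 5 members near 0 counts could not be compared.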
